A study of Mus musculus with 2 samples.

Results

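Pulmonary surfactant lines the air spaces of the lung and keeps them from collapsing when breathing starts at birth. The 10 mouse genes described here, chosen by name, make its proteins (Sftpa1, Sftpb, Sftpc, Sftpd), cleave them (Napsa), load, build or mark its lipid stores (Abca3, Lpcat1, Lamp3), move phosphate (Slc34a2) or regulate such genes (Cebpa). They are 10 of 21646 protein-coding genes annotated in GENCODE M21. For each gene, binding sites of CTCF were taken within 1000 bp of a transcription start site (TSS), in the rest of the gene, and within 50000 bp of either end. This gave 78 of the 64732 listed sites on chromosomes 1 to 19 and X.

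The sites came from ChIP-seq, which sequences the DNA that an antibody to CTCF pulls down. The tissue was whole lung of newborn mice (postnatal day 0) of strain B6NCrl, with no genetic change and no treatment named. There was 1 group of 2 replicates. The labels call them biological replicates 1 and 2, but name the same biosample and the same donor for both. Whether they are separate animals could not be settled, so how they differ may reflect technique alone. The sex of the animals was not recorded, and no second age or tissue was compared. The listed sites are those of the authors' optimal list, which keeps peaks that passed IDR, a measure of how reproducible their ranks are. Each site is given with its signal in replicate 1 and then in replicate 2. Signal is the value the authors deposited for the peak, with no unit stated. Read depth is unknown, since the files list peaks and no read totals.

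Surfactant is made by type 2 alveolar epithelial cells, which pack phospholipid and hydrophobic proteins into lamellar bodies and release them into the fluid layer. CTCF, a protein with many zinc fingers, recognises a conserved motif, and cohesin moving along DNA halts where that motif faces it. Pairs of CTCF sites whose motifs point at each other therefore often mark the ends of chromatin loops. Whole lung holds many cell types besides type 2 cells, and weak binding in many cells cannot be told apart here from strong binding in few.

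The 12 sequences that follow are those on which the descriptions of single genes turn. Each shows 52 bases of GRCm38 (mm10) around the best match to the CTCF core motif, read 5′ to 3′ on the strand of the match, with the 12 bases of the core in capitals.
Abca3 promoter (chr17:24351889-24351940, minus strand): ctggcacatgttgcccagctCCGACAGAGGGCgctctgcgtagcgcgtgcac
Cebpa promoter (chr7:35119217-35119268, plus strand): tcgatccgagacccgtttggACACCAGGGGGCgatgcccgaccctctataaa
Sftpa1 upstream (chr14:41128160-41128211, plus strand): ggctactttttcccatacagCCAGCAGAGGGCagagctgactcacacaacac
Sftpa1 downstream, between Mbl1 and Sftpd (chr14:41162857-41162908, minus strand): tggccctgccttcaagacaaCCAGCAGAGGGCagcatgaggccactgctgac
Sftpb far upstream (chr6:72261399-72261450, minus strand): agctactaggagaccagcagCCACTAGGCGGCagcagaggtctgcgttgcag
Sftpb upstream (chr6:72284023-72284074, plus strand): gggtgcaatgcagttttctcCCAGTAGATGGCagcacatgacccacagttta
Sftpc upstream (chr14:70549405-70549456, plus strand): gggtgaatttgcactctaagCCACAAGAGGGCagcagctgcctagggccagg
Sftpc past the 3′ end (chr14:70520705-70520756, plus strand): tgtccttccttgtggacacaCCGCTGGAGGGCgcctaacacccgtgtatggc
Lamp3 upstream (chr16:19724312-19724363, plus strand): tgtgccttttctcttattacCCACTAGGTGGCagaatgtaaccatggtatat
Lpcat1 first intragenic (chr13:73505887-73505938, minus strand): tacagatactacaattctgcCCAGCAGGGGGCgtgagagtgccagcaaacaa
Lpcat1 second intragenic (chr13:73513399-73513450, plus strand): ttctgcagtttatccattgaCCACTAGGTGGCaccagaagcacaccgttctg
Slc34a2 intragenic (chr5:53048106-53048157, minus strand): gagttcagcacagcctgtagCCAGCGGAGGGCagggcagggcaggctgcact

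Cores in the Sftpa1 pair, the Sftpb upstream site, the Lamp3 site and both Lpcat1 sites matched the motif exactly. Those of Cebpa, Slc34a2, the Sftpc upstream site and the far upstream Sftpb site had 1 mismatch. The Abca3 core and the core past the 3′ end of Sftpc had 2 mismatches. The Sftpa1 pair carried identical cores, CCAGCAGAGGGC, on opposite strands.

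A second set of 6 sequences is shown because they share the core CCAGAAGAGGGC, the most frequent core around these genes.
Sftpb intron (chr6:72308453-72308504, minus strand): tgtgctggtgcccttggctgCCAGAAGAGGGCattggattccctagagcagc
Rnf181 intron, downstream of Sftpb (chr6:72364181-72364232, plus strand): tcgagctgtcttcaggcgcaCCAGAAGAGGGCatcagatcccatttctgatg
Bmp1 intron, downstream of Sftpc (chr14:70484990-70485041, minus strand): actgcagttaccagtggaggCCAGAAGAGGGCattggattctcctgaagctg
Abca3 intron (chr17:24391320-24391371, plus strand): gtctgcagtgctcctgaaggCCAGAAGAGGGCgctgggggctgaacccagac
Napsa intron (chr7:44578378-44578429, plus strand): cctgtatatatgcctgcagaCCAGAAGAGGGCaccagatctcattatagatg
Myh14 intron, downstream of Napsa (chr7:44617234-44617285, minus strand): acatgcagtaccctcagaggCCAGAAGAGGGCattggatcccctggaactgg

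This core was also the most frequent over all listed sites, where it stood at 6008 sites (19.4% of those with an oriented core). All 6 member copies lay in repeat-masked sequence, as did 99.6% of copies over all sites. In 3 of the 6 copies the 7 bases after the core were also alike (attggat), so the resemblance ran past the motif itself.

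A listed site lay within 1000 bp of a TSS at 4 of the 10 genes (40%), and over all protein-coding genes the share was 39.8%. These were Abca3, Cebpa, Lpcat1 and Slc34a2. None of the 4 surfactant protein genes had one, and their nearest sites lay 3367 to 22270 bp from a TSS. Among the other 6 members, 4 had one. Of the 6 members without one, 4 had a pooled peak there that neither reproducibility-filtered list keeps, against 48.6% of all genes without a listed TSS site. Only Abca3 and Cebpa had a site near the outermost 5′ end of the gene (2 of 10, against 35.3% of all genes), because the sites of Lpcat1 and Slc34a2 lay at internal start sites.

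Sites in the gene body, away from any TSS, were found at 6 of 10 members, and at 47.4% of all genes. All 10 had a site outside the gene within 50000 bp of an end, against 85.5% of all genes. The number of sites per gene ran from 2 at Sftpd to 17 at Sftpb, with a median of 8.5 against 6 over all genes. The median distance from a TSS to the nearest site was 3481.5 bp, against 2966 bp for all genes. With 10 genes chosen by name, these counts are descriptions, and no test of the list was made.

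**Figure D1:**
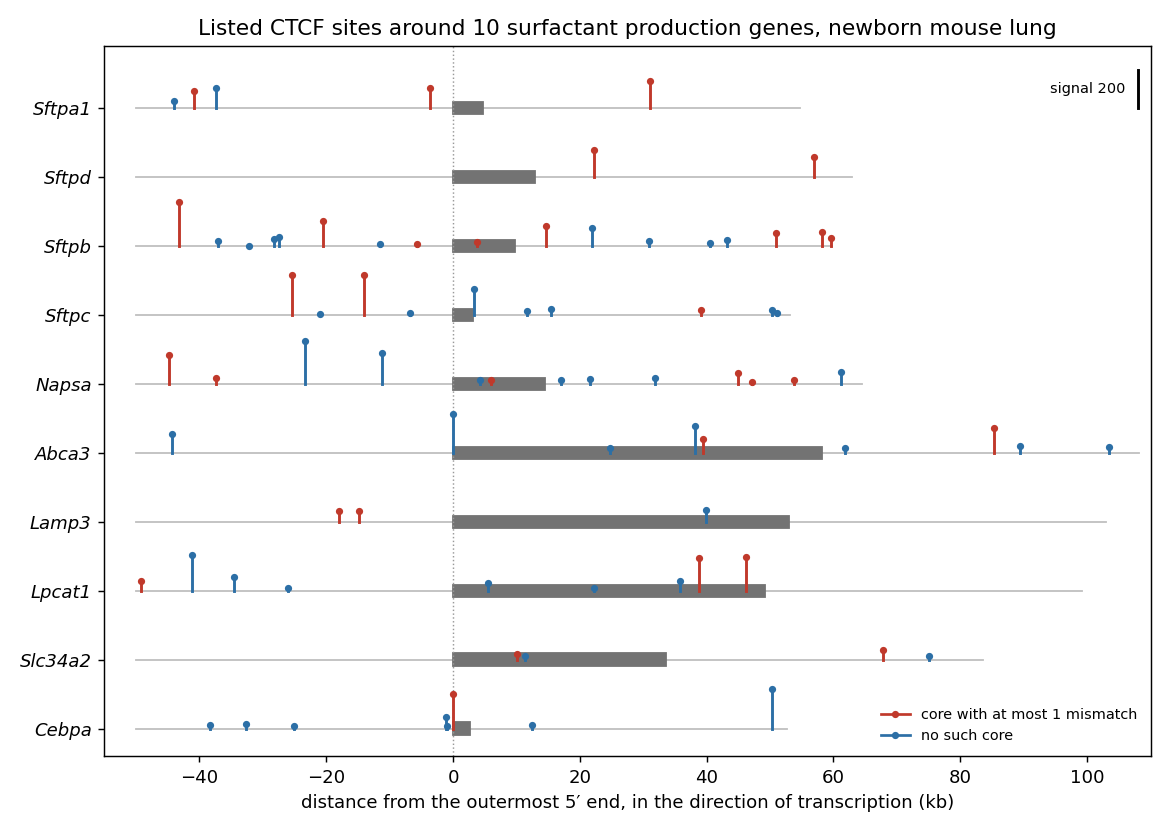
Listed CTCF sites by distance from the outermost 5′ end (kb, in the direction of transcription) for each of the 10 genes. Grey boxes are gene bodies, thin lines the windows of 50 kb past each end, and stem height is the mean signal of the 2 replicates (the replicate with a peak where only 1 has one, and 0 where neither has). Red stems have the core with at most 1 mismatch, and tall stems stand at the 5′ ends of Abca3 and Cebpa and away from those of the 4 surfactant protein genes.

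**Figure D2:**
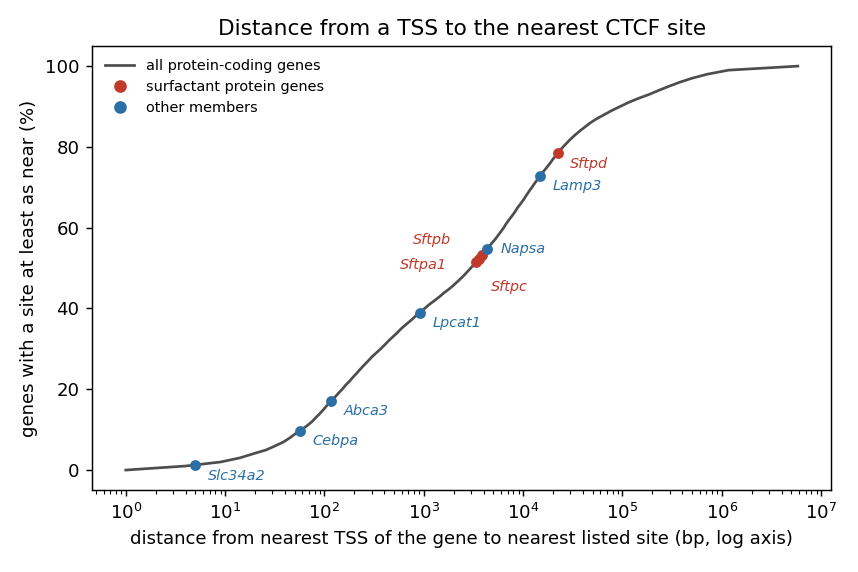
Distance from a TSS to the nearest listed site (bp, log axis) against the percentage of protein-coding genes with a site at least as near. The grey curve is all protein-coding genes, and the points place the 10 members on it, with Sftpc, Sftpa1, Sftpb and Napsa close together between 3367 and 4296 bp.

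Sftpa1 encodes surfactant protein A, a collectin that binds microbes and helps organise surfactant lipid. The gene (chr14:41131782-41136452, plus strand) had no site in its body and 5 sites in the flanks. The nearest lay 3596 bp before its 5′ end, with signals of 100.96 and 111.69. On the 3′ side the next site lay 26427 bp past the gene, with signals of 141 and 138. Both signals at this second site exceeded both at the first. The exact cores of the pair point at each other and enclose Sftpa1 and Mbl1, the gene of a mannose-binding collectin. Further upstream, in or near Dydc1, 3 sites at 37450 to 44072 bp had signals of 40.2 to 114 in replicate 1 and 32.7 to 96.2 in replicate 2.

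Sftpd encodes surfactant protein D, another collectin of the air space lining. The gene (chr14:41172214-41185149, minus strand) is on the far side of the second site of that pair, which lies 9335 bp past the 3′ end of Sftpd, so both genes were counted with it. The site before the 5′ end of Sftpa1 was the other that both genes shared. No other listed site lay within 50000 bp of Sftpd. On its 5′ side the next listed site was 2619476 bp away and weak, with signals of 15.4 and 11.4. Only 0.917% of protein-coding genes had a longer stretch without a listed site on that side.

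That stretch held 53 protein-coding genes, and all 53 have provisional Gm or Rik names. Unknown bases made up 9.54% of it and repeat-masked sequence 44%, against 34.8% masked on chromosome 14. It held 4 peaks of any strength in the pooled list, or 1.53 per Mb against 97 per Mb on the chromosome. The highest of these had a pooled signal of 11.8. How far reads could be placed uniquely in this stretch was not tested.

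Sftpb encodes surfactant protein B, the hydrophobic protein without which newborn lungs cannot form a working film. The gene (chr6:72304610-72314371, plus strand) had the most sites of the 10, and 5.14% of all genes had at least as many. Upstream, sites at 20519 bp (137 and 124) and 43188 bp (211 and 243) were the strongest. The latter was the member site with the highest signal in replicate 2. Downstream, a site 4831 bp past the 3′ end lay in a coding exon of Usp39, a splicing factor gene, with signals of 116 and 91 and an exact core, CCAGCAGGGGGC. That core and the one 20519 bp upstream are the nearest oriented cores outside the gene and face each other across it. Closer to the 5′ end, a weak site at 5626 bp (15.5 and 9.67) matched the core equally on both strands.

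Within Sftpb, the single site lay 3857 bp into the gene in an intron (21.2 and 16.6) and carried the repeat-masked core shown above. Of the 17 sites, 8 held a core with at most 1 mismatch. The weakest by pooled signal had no peak in either replicate with its summit within 100 bp. Both replicates had one within 200 bp. A further site 11523 bp upstream had signals of 4.29 and 11.9. The strong and weak sites around this gene thus differed by more than the replicates did.

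Sftpc encodes surfactant protein C, made almost only by type 2 cells and widely used as their marker. The gene (chr14:70520949-70524081, minus strand) had no site in its body, but one lay 235 bp past its 3′ end with signals of 136 and 133. On the 3′ side, 98.6% of all genes had their nearest site farther away. That site was also 526 bp from a TSS of Bmp1, the gene of a procollagen protease, whose body begins 715 bp past the end of Sftpc. Upstream, sites at 14110 bp in an untranslated exon of Lgi3 (209 and 203) and at 25364 bp (213 and 202) were the strongest of the 10 around Sftpc. Between Sftpc and the first of these was a weak site at 6831 bp (7.84 and 7.52), 42 bp from the TSS of Lgi3.

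Napsa encodes napsin A, an aspartic protease that processes surfactant protein B. The gene (chr7:44572380-44586862, plus strand) had 13 sites and none at its TSS. Its body held sites 4296 bp (21.7 and 15.4) and 6025 bp (26.3 and 13.4) from the 5′ end, both weaker in replicate 2. Stronger sites lay upstream at 11153 bp (157 and 160), 23381 bp (229 and 215) and 44716 bp (153 and 147). The middle one of these had the highest replicate 1 signal of all 78 sites and lay 152 bp from a TSS of Pold1, the gene of a DNA polymerase subunit. No site past the 3′ end exceeded 63.4 in either replicate.

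Abca3 encodes the transporter that loads phospholipid into lamellar bodies. The gene (chr17:24351950-24410201, plus strand) had a site 44 bp before its outermost 5′ end with signals of 210 and 198, in the top 3.42% of listed sites. Its core has 2 mismatches and runs on the strand opposite to the gene. Within the gene, sites lay at 24726 bp (32.4 and 14.8), 38095 bp (145 and 134) and 39375 bp (69.9 and 73.4). The first was lower in replicate 2 by more than the typical difference, and the other sites differed little between replicates. Of the 5 flanking sites, the strongest was 27144 bp past the 3′ end in an intron of Eci1 (130 and 127).

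Lpcat1 encodes an acyltransferase that makes the saturated phosphatidylcholine of surfactant. The gene (chr13:73467197-73516422, plus strand) had sites at its 3′ part with signals of 181 and 164 (38724 bp) and 174 and 173 (46229 bp). Their exact cores, shown above as first and second intragenic, point away from each other. Weaker sites lay before them in the gene at 22173 bp (17.5 and 15) and 35749 bp (58.9 and 46.6). A site 916 bp from an internal TSS (40.4 and 41.3) counted as its TSS site, and the nearest site to the outermost 5′ end was 5470 bp away. In the conservative list, the authors' other reproducibility-filtered list, a further weak site lay 20 bp from that end, with a peak of 12.8 in replicate 2 and none in replicate 1. Upstream, a site at 41171 bp reached 207 and 169. On the 3′ side the next site was 104420 bp away (28.7 and 33), past 2 other protein-coding genes.

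Lamp3 encodes a membrane protein of lamellar bodies and lysosomes. The gene (chr16:19653378-19706375, minus strand) had 3 sites, all of middle strength. Upstream, sites at 14837 bp (62 and 49.7) and 17975 bp (52.8 and 63.9) swapped order between the replicates, so their strengths cannot be ranked. Their cores point away from each other. Inside the gene, a site lay in an intron at 39871 bp (58.1 and 60.1). On the 3′ side the next site was 506592 bp away (15.6 and 16), past 8 olfactory receptor genes, in a stretch of which 54.2% was repeat-masked against 33.1% on chromosome 16. The pooled list held 9.87 peaks per Mb there, against 109 per Mb on the chromosome.

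Slc34a2 encodes a sodium-dependent phosphate transporter of type 2 cells that takes up phosphate set free from surfactant lipid. The gene (chr5:53038081-53071664, plus strand) had 4 sites. The one 5 bp from an internal TSS had 18.7 in replicate 2 and no replicate 1 peak within 100 bp. Replicate 1 did have a peak within 200 bp of it. A site 10028 bp from the outermost 5′ end, 1243 bp from an internal TSS, had signals of 25.4 and 36.3. Outside the gene the nearest sites lay 59577 bp upstream (56.3 and 58.1) and 34257 bp downstream (52.1 and 47.8). No site on or around this gene exceeded 60 in either replicate.

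Cebpa encodes a transcription factor that type 2 cells use to switch on surfactant and lipid genes. The gene (chr7:35119293-35121928, plus strand) had a site 57 bp before its outermost 5′ end with signals of 188 and 172. Its core has 1 mismatch and runs in the direction of the gene. A second TSS site at 936 bp had signals of 7.59 and 22.9, the widest gap between replicates among the 76 member sites seen in both. Another site at 1139 bp, 54.3 and 62.7, was just outside the TSS limit and overlapped the second. The strongest site around Cebpa was 50293 bp from the 5′ end (214 and 196), and the 4 remaining flanking sites did not exceed 26.6.

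The closest oriented cores outside each end of the gene pointed at each other at 5 of the 10 members: Sftpa1, Sftpb, Lamp3, Napsa and Cebpa. Over all protein-coding genes with a core on each side, 27.9% had this arrangement. At the other 5 both cores lay on the same strand (46.4% of all genes), and at none did they point apart (25.7%). For Lamp3 the partner on the 3′ side was the weak site beyond the olfactory receptor genes. With 10 genes, of which Sftpa1 and Sftpd share sites, no test was made, and contacts between the sites were not measured.

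Of the 78 sites, 76 had a peak in each replicate within 100 bp, and all 78 had one within 200 bp. Replicate 1 was higher at 50 of the 76 (over all listed sites, at 63.5%). The median size of the log2 ratio between replicates was 0.21 for the members and 0.21 over all listed sites. The SD of the ratio was 0.47 for member sites and 0.46 for all. At the 18 member sites above 100 in both replicates the log2 ratio of replicate 1 to replicate 2 ran from -0.20 to 0.29. Differences of that size between strong sites are therefore within replicate error. Sites above 100 in both made up 23.1% of the member sites and 24.6% of all sites. Of the 78, 69 were also in the conservative list (87.4% of all listed sites were).

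**Figure D3:**
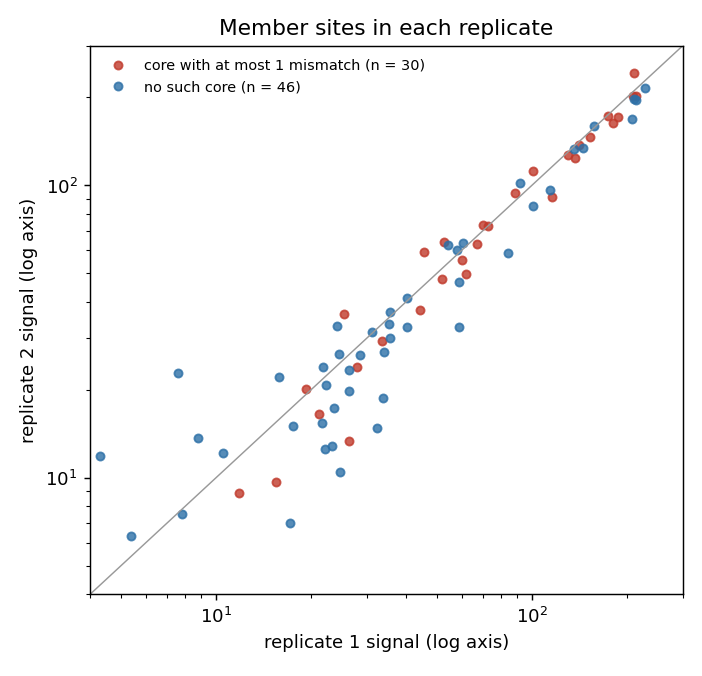
Signal of each member site in replicate 1 and replicate 2 (log axes), with the line of equality. Points are the 76 sites with a peak in both, red with the core at most 1 mismatch away and blue without, and the scatter about the line is wider among sites under 40.

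The core with at most 1 mismatch lay within 50 bp of the summit at 30 of 78 member sites (38.5%, 95% Wilson interval 28.4% to 49.6%, counting error only). It was found at 48.3% of all listed sites and in 1.28% of windows 1000 bp to either side. Among the 18 strong sites 11 held it, and among the 38 member sites under 40 in both replicates 8 did. A replicate with no peak within 100 bp was counted as under 40 at these member sites. Over all listed sites the shares were 70.2% above 100 and 34.8% under 40. With 2 mismatches allowed, 57 member sites had a match (76.2% of all sites and 8.68% of the side windows).

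Of the 30 cores, 14 lay in repeat-masked sequence (46.7%, against 28.9% of cores over all sites). Their median signals were 48.2 and 42.7, against 123 and 109 for cores in unmasked sequence. The order was the same over all sites, at 29.9 and 26.8 against 96.9 and 91.9. The strongest masked core around these genes, at 209 and 203, was the site in Lgi3, and the Sftpa1 pair was masked as well. The class of these repeats was not read from the files used here.

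GC content near the 5′ end was highest at the genes with a site at that end, Abca3 and Cebpa. Within 500 bp of the outermost 5′ end it was 63.9% for Abca3 and 68.8% for Cebpa, and 59.3% for Lpcat1. It was 44.7% for Sftpd, 46.1% for Sftpa1, 52.6% for Sftpc and 57.2% for Sftpb. Of these 4, Sftpb alone was above the median of all genes, 54.8%. Lamp3 (43.4%), Slc34a2 (47.0%) and Napsa (51.1%) were below it. Slc34a2 thus had a TSS site at low GC and Sftpb none at higher GC, but the TSS sites of Slc34a2 and Lpcat1 lay 11276 and 5470 bp from the end where GC was measured. Of all genes, 11.6% in the lowest of 4 equal GC classes had a TSS site, then 33.6%, 51.8% and 62.4% in the classes above it. In the same classes 1 of 4, 0 of 2, 1 of 2 and 2 of 2 members had one. The part of GC content in these counts was not tested.

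**Figure D4:**
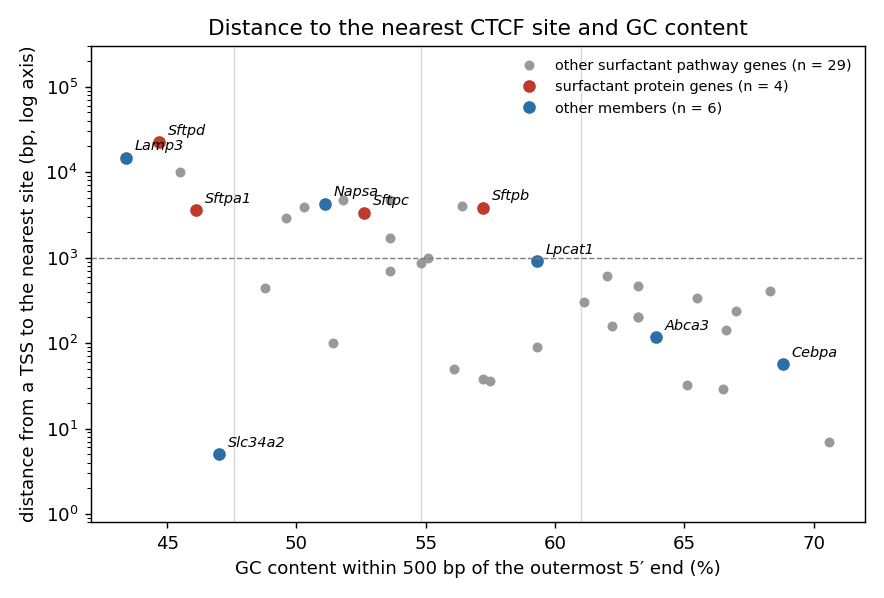
GC content within 500 bp of the outermost 5′ end (%) against the distance from a TSS to the nearest listed site (bp, log axis). Points are the 4 surfactant protein genes, the other 6 members and 29 other genes of the pathway. Vertical lines are the borders of the 4 GC classes and the dashed line is 1000 bp. The 4 surfactant protein genes lie above the dashed line, as do Napsa, Lamp3 and some of the other pathway genes.

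A list of 29 other genes of surfactant metabolism and type 2 cell regulation was set beside the members. A TSS site was present at 22 of the 29 (75.9%), against 39.8% of all genes. By role, it was present at 9 of 9 genes of phospholipid synthesis, 7 of 8 regulators, 3 of 6 lamellar body and processing genes and 3 of 6 clearance genes. Over the 29 genes, 13 were in the top GC class and all 13 had a site, while 9 of the other 16 had one. Median GC did not follow the shares by role throughout: it was 63.2% for phospholipid synthesis, 56.2% for regulators and 50.8% for lamellar body and processing genes, and clearance genes lay slightly above the regulators with fewer sites. The 29 genes were picked by name with results of these libraries known, so their count was not tested.

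The 8 strongest of these sites by mean rank included 4 lipid synthesis genes: Acaca (123 and 107) and Fasn (96.6 and 88.2), of fatty acid synthesis, Acly (53.3 and 52.2), which supplies its acetyl-CoA, and Pcyt1a (55.5 and 45.4), of phosphatidylcholine synthesis. The site of Acaca lay at an internal TSS, 49769 bp from the outermost 5′ end. Ctsh, a cathepsin that processes surfactant protein B, had 105 and 120. The regulators among the 8 were Foxa1 (105 and 81), Gata6 (50.7 and 70.7) and Etv5 (41.3 and 43.4). Nkx2-1, the main regulator of lung epithelium, had a weaker site (6.45 and 13.5). None of the 8 reached both signals of the Abca3 or Cebpa promoter sites.

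**Figure D5:**
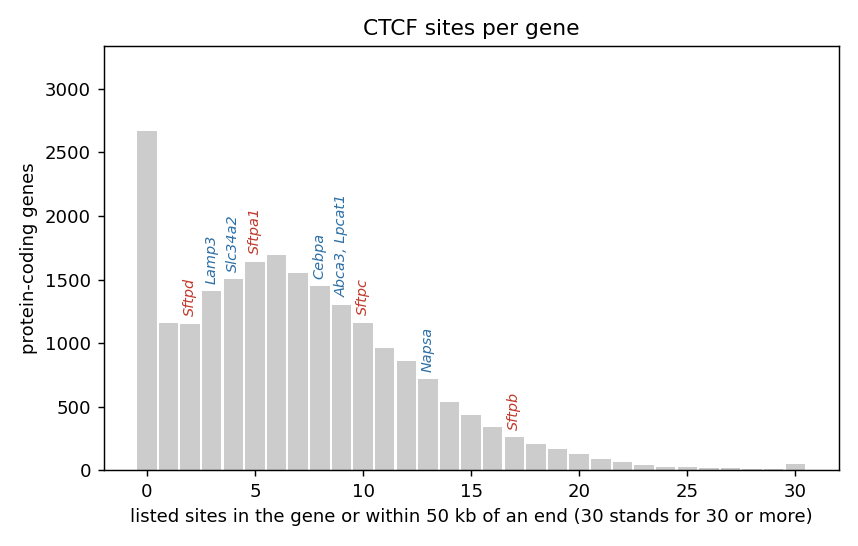
Number of protein-coding genes (y axis) by the number of listed sites in the gene or within 50 kb of an end (x axis, with 30 standing for 30 or more). Names mark the members, from Sftpd with 2 sites to Sftpb with 17.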

How the data were processed

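Peak lists of 2 CTCF ChIP-seq replicates of newborn mouse lung were analysed. The authors deposited, per the file headers and labels, peaks of each replicate (300000 each), of the pooled data (300000), and optimal and conservative IDR lists, on mm10. Aligner, caller and IDR cutoff were not given in the sources used here. Column 7, the signal deposited by the authors, was used as given. The summit position was read from the offset the authors deposited, in bp. IDR lists carry pooled signals, so replicate values are the highest peak of that replicate within 100 bp of the summit. The 10 sites of the optimal list on other contigs were left out.

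Genes and TSSs of protein-coding transcripts came from GENCODE M21, and sequence from RefSeq GRCm38.p6, whose lower case letters mark repeats. The CTCF core motif (12 positions, both strands, at most 1 mismatch) was searched in 101 bp around summits, and side windows were centred 1000 bp away. A core with equal best matches on both strands got no orientation. The distance and core search were tested on simulated data. Scripts used Python 3.11.15, pandas 2.3.3, numpy 2.4.6 and scipy 1.17.1.

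The 10 members and the 29 pathway genes were chosen with earlier results of these data known. Genes named are the members, neighbours with a site between, and the 8 pathway genes with the strongest TSS sites by mean rank over replicates. Nkx2-1, genes holding a described site and genes in a long stretch without sites were named after their values were seen. No test across genes or samples was made, as there is 1 group, and the share of member sites with the core has a 95% Wilson interval. Alternatives were 1 replicate alone (its 64732 strongest peaks, with no IDR filter), the conservative list and the strongest 32366 sites. Others were dropping sites within 500 bp of a stronger one, and other distances, windows and mismatches.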

Additional observations from a re-analysis of the deposited data

Results flagged for a closer look

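The pooled peak list holds peaks outside both IDR lists, which are not among the listed sites. Of the 6 members with no listed site at a TSS, 4 had such a peak within 1000 bp of one: Sftpa1, Sftpb, Sftpc and Napsa. The same held for 48.6% of the 13028 protein-coding genes with no listed TSS site. The highest of the 8 peaks was 63 bp from the Sftpc TSS (7.89 and 4.16), and 1 of the 8, at Napsa, held the core. In all, 245 such peaks lay in the windows of the members and 9 of them held the core (3.67%, against 1.28% of side windows and 48.3% of listed sites). The data hold no control sample to set these values against.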

How the results depend on the processing

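Of 52 recomputed values, 39 stayed close to the reported one. Close meant counts within 1.5 times of it and the core share within its interval. For the median distance it meant within the SD of the values from each replicate alone. For the median log2 ratio it meant within the SD of the ratio over member sites. That SD, 0.47, is larger than the median ratio of 0.21, so this last limit was wide. Within 5000 bp of a TSS, 8 members had a site (56.6% of all genes), and at the outermost 5′ end alone 2 did, with a median distance of 4076.5 bp. In the 32366 sites of highest signal, 3 members had a body site, 39 sites lay around the members and the median distance was 7374.5 bp. In that list the core stood at 56.4% of member sites. TSS sites were found there at 9 of the 29 pathway genes, against 19.2% of all genes. The body share over all genes and the core share over all sites were not computed for that list. Flanks of 25000 and 100000 bp gave 41 and 152 sites. With 0 and 2 mismatches the core share was 11.5% and 73.1%. With 1 replicate alone the median distance was 3475.0 to 3482.0 bp. The TSS site of Slc34a2 was absent from the conservative list and from replicate 1 alone, which left 3 members with a TSS site in each. The share of all genes with a TSS site was 38% in the conservative list and 40.3% with replicate 1 alone. In the optimal list it was 39.8%. The conservative list held 9 sites around the members that the optimal list lacks, 2 of them with the core. No paired analysis was possible because there is only 1 group. Depth is unknown, so weak sites and sites of 1 replicate are the least certain, and a gene without a listed site may still be bound.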
